A study of Mus musculus with 29 samples.

Results

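The genes described here are 35 mouse genes chosen by symbol. They encode voltage-gated sodium, calcium and potassium channels, HCN channels and auxiliary subunits. Kcnn3 and Kcnn4, counted with the potassium channel genes, encode channels that are calcium-activated and not voltage-gated. A gene counted as measured where the platform annotation gave at least 1 array probe set to that symbol alone, and the probe set of highest mean signal stood for the gene. On that rule 32 of the 35 genes were measured, among 18193 measured genes in all. They were 6 of 7 sodium, 11 of 12 calcium, all 13 potassium and 2 of 3 HCN genes. Scn2a1, Cacnb3 and Hcn4 were not analysed here.

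Voltage-gated ion channels open in answer to a change in membrane voltage. Sodium channels carry the upstroke of the action potential, calcium channels couple voltage to calcium entry and transmitter release, and potassium channels bring the membrane back to rest. Many pore-forming alpha subunits assemble with auxiliary subunits, beta for sodium channels and alpha2delta and beta for calcium channels, that set how much channel reaches the membrane. HCN channels open on hyperpolarization and help to pace repetitive firing. Neurons and chromaffin cells of the sympathoadrenal lineage, in which neuroblastoma arises, are excitable cells, whereas blood cells use a few potassium channels to control calcium entry and volume.

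The study asked how loss of caspase-8, a protease that starts apoptosis downstream of death receptors, alters neuroblastoma in TH-MYCN mice, whose transgene drives MYCN from a tyrosine hydroxylase promoter. All mice were labelled as strain 129X1/SvJ and as TH-MYCN. The arrays covered 17 primary abdominal tumours labelled caspase-8 deficient and 7 labelled wild type for caspase-8, with total bone marrow from 3 caspase-8 deficient and 2 wild type mice. The labels give no age, no sex and no allele for the deficiency, and they leave unstated whether any mouse gave more than 1 sample, so p-values measure only the spread between these samples. Values are log2 signals after RMA, a method that corrects background, aligns the distributions of the arrays and summarises the probes of a probe set. A difference of 1 on this scale is a 2-fold difference in signal, and levels of different genes cannot be ranked against each other because probe sets differ in their binding.

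The mean of the sympathetic neuron markers matched the tissue labels, though not every marker did. The 21 measured sympathoadrenal and neuronal markers averaged between 9.43 and 9.99 in the tumours, and between 3.99 and 4.22 in marrow. The 12 leukocyte markers averaged between 5.06 and 6.95 in tumours and between 8.06 and 8.32 in marrow, and the 8 erythroid markers between 4.23 and 5.98 in tumours and between 9.88 and 10.2 in marrow. Skeletal muscle markers, 12 genes, reached 8.81 in deficient tumour 11, 7.84 in wild type tumour 3 and 6.88 in wild type tumour 7, against at most 4.95 in any other tumour. Casp8 averaged 5.62 in deficient and 5.88 in wild type tumours, and 9.14 in deficient and 9.46 in wild type marrow, and whether its probe set lies in the deleted part is not given in the labels. In bulk samples, fewer cells of a type and less RNA per cell cannot be told apart, which holds for every comparison that follows. The signal gap between the 3' and 5' ends of the array's control transcripts, a measure of RNA integrity, averaged 0.719 in tumours (0.447 to 1.18) and 0.552 in marrow (0.396 to 0.661). Within tumours it averaged 0.761 in deficient and 0.616 in wild type samples. Its part in the results was not tested.

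The first comparison asked which channels tumours express compared with marrow. In tumours 4 of 6 sodium and 8 of 11 calcium channel genes were higher, the potassium channel genes were mixed, and Kcnn4 was far lower. Limma, fitted to all genes in a model of the 4 groups, called 24 of the 32 genes at an adjusted p under 0.05, or 75%, against 76.4% of all measured genes, so that the share called was near the background. The direction was less even: 19 channel genes (59.4%) were higher in tumours, against 34.2% of all genes, and 5 (15.6%) were lower, against 42.2%. The set was chosen with earlier results of these data known, so the shares given here describe this set and not channel genes at large. At least 2-fold higher were 13 channel genes (40.6%), against 16.8% of all genes, and at least 2-fold lower were 2 (6.25%), against 12.6%. In 13 channel genes (40.6%) every tumour lay above every marrow sample, against 20.9% of all genes, and in 3 (9.38%) every tumour lay below, against 16.9%. The median difference, tumours minus marrow, was 0.73 over the channel genes and -0.10 over all genes. With each array centred on its own median the median of all genes was at -0.39, and 14 channel genes (43.8%) were called higher, against 25.9% of all genes under the same centring, and 9 (28.1%) lower, against 58.3%.

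**Figure D1:**
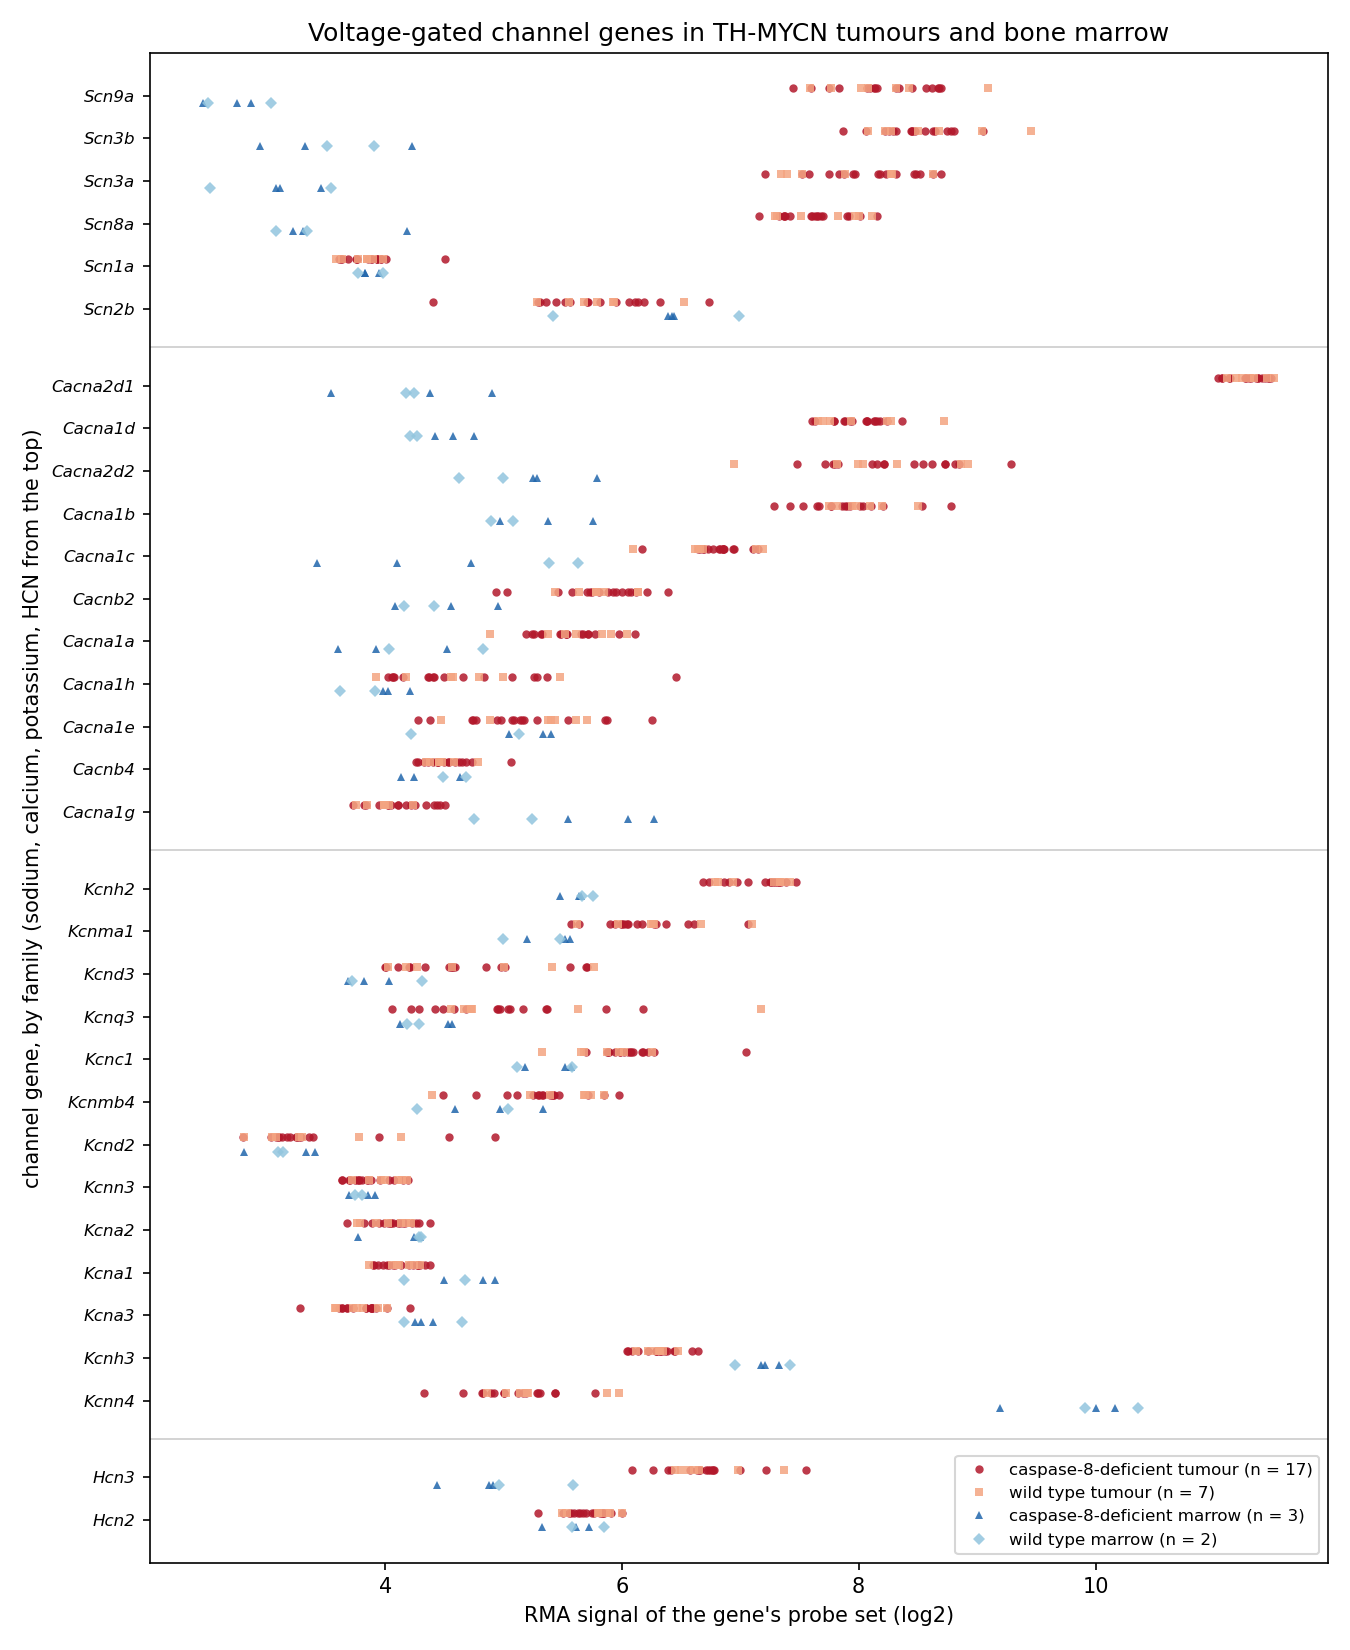
Log2 RMA signal (horizontal axis) of each of the 32 measured channel genes in every sample, with genes in rows by family. In each row tumours (circles, caspase-8 deficient, n = 17; squares, wild type, n = 7) are drawn above marrow (triangles, deficient, n = 3; diamonds, wild type, n = 2), and the 4 sodium channel genes at the top show the tumours wholly to the right of marrow.

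Signals of 39 olfactory receptor genes, which neither tissue is known to use widely, gave a guide to signal near background. The 95th percentile of their group means was 4.37 in tumours and 4.43 in marrow. By this guide 25 of the 32 channel genes stood above it in tumours and 18 in marrow, whereas 66.4% of all genes did in either tissue. Above it in tumours only were 9 genes, among them Scn3a, Scn8a, Scn9a, Scn3b and Cacna2d1, and in marrow only 2, Cacna1g and Kcna1. Scn1a, Kcna2, Kcna3, Kcnd2 and Kcnn3 stood above it in neither tissue, so their differences are between dim signals. The guide is no detection call.

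Of the 6 sodium channel genes, 4 were higher in tumours by 19.4-fold or more on the probe sets used, and their marrow signals there lay near background. On their other probe sets the folds were 1.29 to 10.6 for Scn9a, 0.78 to 6.36 for Scn8a, 1.33 for Scn3b and 0.85 for Scn3a. Marrow stood at 4.95 on another probe set of Scn9a and at 4.58 on another of Scn8a, above the guide of 4.43. Scn9a encodes a pore subunit typical of sensory and sympathetic neurons. Its signal ran over the 24 tumours with a lowest value of 7.45, a median of 8.15 and a highest value of 9.09, against 2.75, 2.46 and 2.87 in deficient marrow and 3.03 and 2.50 in wild type marrow. Tumours and marrow were separated by more than 4 log2 units with no overlap, a difference of 5.46 (SE 0.20, 44.1-fold, limma adjusted p = 9.7e-21). Scn3a encodes the pore subunit prominent in the embryonic nervous system. It had 7.20, 8.07 and 8.69 as lowest, median and highest tumour signal, against 3.08, 3.11 and 3.46 in deficient and 2.52 and 3.54 in wild type marrow. The groups did not overlap, and the difference was 4.87 (SE 0.22, 29.2-fold, limma adjusted p = 1.8e-18).

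Scn8a encodes the pore subunit of nodes of Ranvier and axon initial segments. Its tumour signals had a lowest value of 7.16, a median of 7.64 and a highest value of 8.16, against 3.23, 3.31 and 4.19 in deficient and 3.34 and 3.08 in wild type marrow. No tumour reached down to marrow, with deficient marrow 3 the highest marrow sample, and the difference was 4.28 (SE 0.15, 19.4-fold). Scn3b encodes a beta subunit that modulates the pore's gating and trafficking. It ran at 7.87, 8.46 and 9.46 (lowest, median, highest) in tumours, against 2.94, 3.32 and 4.23 in deficient and 3.91 and 3.51 in wild type marrow. The separation was again complete, with a difference of 4.94 (SE 0.19, 30.6-fold). The other sodium channel genes were not called. Scn1a, a pore subunit of fast-spiking interneurons, averaged 3.84 ± 0.19 in tumours (SD, n = 24) and 3.87 ± 0.09 in marrow (SD, n = 5), and the 95% interval of its difference ran from -0.24 to 0.15. Scn2b, another beta subunit, averaged 5.76 ± 0.48 in tumours and 6.33 ± 0.57 in marrow. Its difference of -0.53 (95% interval -1.04 to -0.03, limma adjusted p = 0.052) passed the threshold without any 1 of wild type tumour 2 and deficient tumours 1, 6, 7, 8, 11 and 14 (-0.59 to -0.49), and was -0.93 (adjusted p = 0.0044) without wild type marrow 1.

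Of the 11 calcium channel genes, 8 were higher in tumours, 1 was lower and 2 were not called, with a median difference of 1.401. Cacna2d1 had the largest difference of the 32 genes. It encodes the alpha2delta subunit that carries pore subunits to the cell surface and binds gabapentin. Its tumour signals spanned only 11.03 to 11.51 with a median of 11.31, against 4.38, 4.90 and 3.54 in deficient and 4.24 and 4.17 in wild type marrow. On this probe set the tumours were tightly packed and far above marrow, with a difference of 7.06 (SE 0.12, 133-fold, limma adjusted p = 5.6e-29). Cacna2d2, its relative, had 6.95, 8.21 and 9.29 as lowest, median and highest tumour signal, against 5.28, 5.25 and 5.79 in deficient and 4.63 and 4.99 in wild type marrow. It did not overlap either, but its tumours were more spread, and the difference was 3.10 (SE 0.25, 8.55-fold). The other Cacna2d2 probe sets, dim in both tissues, gave -0.36 and -0.08.

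Among pore subunits, Cacna1d and Cacna1c encode L-type channels, which dihydropyridine drugs block, and Cacna1b encodes the N-type channel of sympathetic nerve endings. Cacna1d had 7.61, 8.01 and 8.72 as lowest, median and highest tumour signal, against 4.42, 4.57 and 4.75 in deficient and 4.21 and 4.27 in wild type marrow. On this probe set all tumours were above all marrow samples, by 3.61 on average (SE 0.13, 12.2-fold). The other Cacna1d probe set, at 4.27 in tumours and 4.05 in marrow, gave 0.23 and was not called. Cacna1b had 7.28, 7.92 and 8.78, against 4.97, 5.76 and 5.37 in deficient and 5.08 and 4.89 in wild type marrow. It too was separated, with a difference of 2.79 (SE 0.17, 6.94-fold). Of its other probe sets, those with marrow near background gave larger differences, 4.63 and 4.59 (24.8-fold and 24.0-fold), and another gave -0.06. Cacna1c had 6.09, 6.79 and 7.19, against 4.72, 4.10 and 3.42 in deficient and 5.63 and 5.38 in wild type marrow. The tumours were all higher, here with marrow more scattered than the tumours, and the difference was 1.96 (SE 0.15, 3.90-fold).

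The remaining calcium channel genes had lower signals or smaller differences. Cacna1a, the pore subunit of P/Q-type channels, averaged 5.57 ± 0.29 in tumours and 4.18 ± 0.49 in marrow, a difference of 1.36 (SE 0.16). Cacnb2, a beta subunit inside the cell that carries and tunes the pore, averaged 5.81 ± 0.35 and 4.43 ± 0.35, a difference of 1.401 (SE 0.17) although the lowest tumour, at 4.94, lay just under the highest marrow sample, at 4.96. Both genes were called, Cacna1a with no overlap. Cacna1h, a pore subunit of T-type channels, which open near resting voltage, averaged 4.66 ± 0.60 in tumours and 3.95 ± 0.22 in marrow, a difference of 0.74 (limma adjusted p = 0.018). That call was lost without wild type marrow 1, where the difference was 0.66 (adjusted p = 0.089). Cacna1e, the R-type pore subunit, averaged 5.17 ± 0.49 and 5.03 ± 0.48, with an interval for the difference of -0.25 to 0.71. Cacnb4 averaged 4.51 ± 0.18 and 4.44 ± 0.24, with an interval of -0.15 to 0.25, and neither was called. Cacna1g, the other T-type pore subunit, was the exception. Its tumours had 3.73, 4.04 and 4.50 as lowest, median and highest signal, against 6.27, 6.05 and 5.54 in deficient and 4.75 and 5.24 in wild type marrow. Every tumour lay below every marrow sample, and the difference was -1.41 (SE 0.12, 2.66-fold lower, limma adjusted p = 9.0e-12).

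The 13 potassium channel genes were divided, with 6 higher, 4 lower and 3 not called, and a median difference of 0.22. Of all genes, 34.2% were called higher and 42.2% lower. On the probe sets used, only Kcnh2 was higher by at least 2-fold, and only Kcnn4 was lower by as much. Kcnn4 encodes the intermediate-conductance calcium-activated channel of red cells and lymphocytes. It had 4.33, 5.15 and 5.97 as lowest, median and highest tumour signal, against 10.17, 10.0017 and 9.19 in deficient and 10.4 and 9.91 in wild type marrow. All 24 tumours lay far below marrow, by 4.76 on the log2 scale (SE 0.18, 27.0-fold lower, limma adjusted p = 6.4e-20). Leukocyte and erythroid markers were higher in marrow too, with 12 of 12 and 7 of 8 called, and their part in the Kcnn4 difference was not tested. Kcnh3, an ether-a-go-go family channel of forebrain neurons, had 6.04, 6.32 and 6.64 in tumours, against 7.21, 7.32 and 7.18 in deficient and 7.42 and 6.95 in wild type marrow. Its groups did not overlap, and the difference was -0.91 (SE 0.08). The other Kcnh3 probe sets gave -0.32, -0.10 and -0.07, and only the first of these was called.

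Kcna3, a delayed rectifier known for its part in T cells, had 3.28, 3.83 and 4.21 as lowest, median and highest tumour signal, against 4.25, 4.30 and 4.41 in deficient and 4.16 and 4.65 in wild type marrow. Kcna1, an axonal delayed rectifier, had 3.87, 4.13 and 4.38, against 4.83, 4.49 and 4.92 in deficient and 4.16 and 4.68 in wild type marrow. Both were lower in tumours, by -0.58 (SE 0.10) for Kcna3 and by -0.45 (SE 0.09) for Kcna1, with ranges that overlapped at 1 marrow sample. Among the genes that were higher, Kcnh2, the ERG channel of cardiac repolarization, averaged 7.15 ± 0.25 in tumours and 5.64 ± 0.10 in marrow, a difference of 1.495 (SE 0.12) with no overlap. Kcnma1, the large-conductance calcium-activated channel of chromaffin cells and smooth muscle, averaged 6.20 ± 0.39 and 5.35 ± 0.25, a difference of 0.90 (SE 0.18). Its other probe sets gave 3.27, 2.14, 1.01 and 0.81, the first of them as bright in tumours, at 6.23. The partner Kcnmb4, a neuronal beta subunit, averaged 5.36 ± 0.40 and 4.84 ± 0.41, a difference of 0.57 (SE 0.20). All 3 were called.

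Kcnd3, which carries transient A-type current, averaged 4.70 ± 0.58 in tumours and 3.92 ± 0.26 in marrow, a difference of 0.78. Kcnq3, a subunit of the M-current that restrains repetitive firing, averaged 4.99 ± 0.69 and 4.34 ± 0.20, a difference of 0.72 (limma adjusted p = 0.039). Kcnc1, of fast-spiking neurons, averaged 6.01 ± 0.31 and 5.39 ± 0.22, a difference of 0.57 (SE 0.14). Several calls depended on single samples. The Kcnq3 call was lost without any 1 of 5 samples (wild type tumour 2, both wild type marrow samples, and deficient marrow 1 and 2), with adjusted p-values between 0.051 and 0.11. The Kcnd3 and Kcnmb4 calls were lost without wild type marrow 2, at 0.63 (adjusted p = 0.088) and 0.38 (adjusted p = 0.15). The genes with no call were Kcnd2, the relative of Kcnd3, at 3.38 ± 0.52 and 3.15 ± 0.23, Kcnn3, a small-conductance calcium-activated channel, at 3.90 ± 0.18 and 3.81 ± 0.09, and Kcna2, an axonal delayed rectifier, at 4.05 ± 0.18 and 4.18 ± 0.23. Their intervals ran from -0.28 to 0.73, from -0.05 to 0.30 and from -0.36 to 0.04, and Kcna2 was called at -0.24 (limma adjusted p = 0.024) without deficient marrow 1. Of the HCN genes, Hcn3 averaged 6.71 ± 0.33 in tumours and 4.95 ± 0.41 in marrow, a difference of 1.71 (SE 0.17, 3.27-fold) with no overlap, whereas Hcn2 averaged 5.72 ± 0.18 and 5.62 ± 0.19, with an interval of -0.09 to 0.29.

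**Figure D2:**
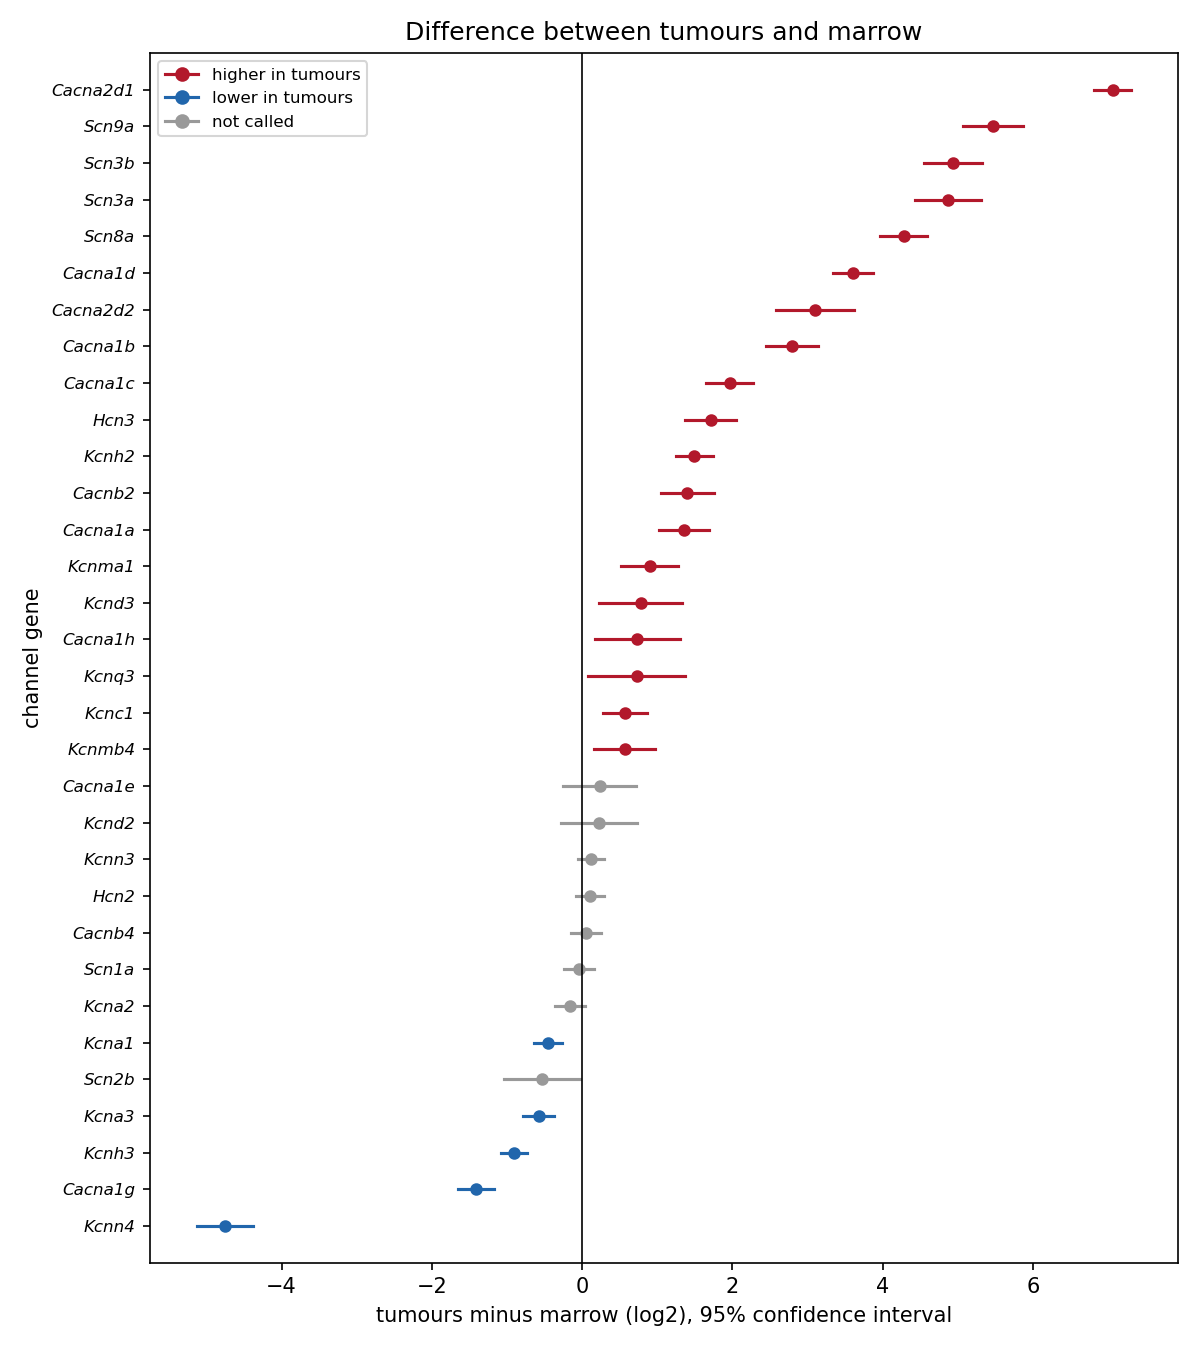
Difference between tumours and marrow (horizontal axis, log2, tumours minus marrow) for the 32 channel genes in falling order. Points are limma estimates and lines 95% intervals; 19 genes are called higher, 5 lower, and the 8 grey genes are not called.

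The rule took 1 probe set per gene, and 25 of the 32 genes had more than 1 among the 89 probe sets. Of the 57 others, 33 gave the same tissue call as the one used, 19 changed between a call and no call, and 5 gave the opposite call. The opposite calls came from another probe set of Scn3a, Scn8a, Cacna1a, Cacna2d2 and Kcnc1. All but the one of Kcnc1, at 5.25 in tumours and 5.91 in marrow, averaged 3.96 or less in both tissues, and for Scn3a and Scn8a their differences were -0.23 and -0.36. With the mean of all probe sets of a gene, the counts were 18 higher (56.2%), against 32.5% of all genes, and 6 lower (18.8%), against 44%, and Kcnd3 (0.09, limma adjusted p = 0.36) and Kcnq3 (0.29, adjusted p = 0.14) were no longer called. With centred arrays the calls of Cacna1h, Kcnc1, Kcnd3, Kcnmb4 and Kcnq3 ended, at differences between 0.28 and 0.49, and that of Kcna1 ended with wild type samples alone, at -0.29 (adjusted p = 0.13).

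Promoter windows were read for the genes with the largest tissue differences in each direction, since these moved most. The RefSeq table of build GRCm38.p6, with windows from 250 bases before to 50 after each start, held 30 windows for 23 of the 32 genes. Their median GC content was 69.2%, against 52.7% over all 32851 windows, and their median count of CpG dinucleotides was 26, against 7. Shown here are the 250 bases before the start of Cacna2d1 (chr5:15934441-15934690, plus strand) and Scn9a (chr2:66634963-66635212, minus strand), the accessory and pore subunit genes furthest above marrow, and of Kcnn4 (chr7:24370013-24370262, plus strand), the gene furthest below. Capitals mark GGGCGG, the GC box, and CACGTG, the E-box that MYC proteins bind, on either strand.
Cacna2d1: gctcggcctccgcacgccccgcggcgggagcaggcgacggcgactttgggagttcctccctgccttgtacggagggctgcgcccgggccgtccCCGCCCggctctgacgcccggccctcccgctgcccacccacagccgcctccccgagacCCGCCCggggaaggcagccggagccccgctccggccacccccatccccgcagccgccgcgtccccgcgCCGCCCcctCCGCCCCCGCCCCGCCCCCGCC
Scn9a: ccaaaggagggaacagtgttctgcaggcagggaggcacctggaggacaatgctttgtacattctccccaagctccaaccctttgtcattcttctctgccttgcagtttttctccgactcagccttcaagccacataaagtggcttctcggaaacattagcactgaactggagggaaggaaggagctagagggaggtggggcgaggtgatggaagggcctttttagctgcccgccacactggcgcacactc
Kcnn4: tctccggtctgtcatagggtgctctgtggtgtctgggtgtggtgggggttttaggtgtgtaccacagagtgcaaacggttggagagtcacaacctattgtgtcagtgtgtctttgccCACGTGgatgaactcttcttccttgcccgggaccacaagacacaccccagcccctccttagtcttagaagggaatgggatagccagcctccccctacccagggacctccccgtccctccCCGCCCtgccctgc
The Cacna2d1 stretch is 82.4% GC, with 6 GC boxes, several of them side by side near the start. Its very last capitals are part of a further match that runs past the start and is not among the 6. The Scn9a stretch is 54.4% GC and holds no motif searched. The Kcnn4 stretch is 58.8% GC, with 1 E-box and 1 GC box.

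Over the windows of the channel genes, read on both strands, with each motif counted on its own whether or not it overlapped another, GGGCGG was in 16 of 30 (53.3%), against 35.7% of all windows. CACGTG was in 1 (3.33%), that of Kcnn4, against 7.15%. TATAAA was in 1 (3.33%), of Cacna1d, against 13.6%, and GGACAG, a part of the site of the repressor REST, in 2 (6.67%), of Kcnd3 and Scn8a, against 22.2%. Another stretch of that site, TTCAGCACC, and the cyclic AMP response element TGACGTCA were in none, against 0.371% and 1.79% of all windows. These are matches of letters in 1 window per start and say nothing about binding.

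The second comparison asked whether the channels differ by caspase-8 genotype in tumours. None of the 32 genes was called, and their differences, deficient minus wild type, ran from -0.26 to 0.26. No gene in the whole table was called by limma in this comparison, a background of 0%. On the probe sets used, at an unadjusted p under 0.05 there were 0 channel genes and 583 of 18193 genes (3.20%). The count also stood at 0 under every alternative tried. Values follow for the 4 channel genes with the smallest p. Kcnc1 had 17 deficient tumours at a mean of 6.08 and 7 wild type tumours at 5.83, with a difference of 0.26 (SE 0.13, p = 0.050 in limma, adjusted p = 0.9997). Other probe sets of Kcnc1 stood at 0.29, 0.27 and 0.01 (unadjusted limma p = 0.026, 0.028 and 0.88, adjusted p = 0.9995 for each). The count of 0 therefore depends on the probe set that stands for Kcnc1. Kcnn3 differed by -0.14 (SE 0.08), Cacna1g by 0.17 (SE 0.10) and Kcnn4 by -0.24 (SE 0.16), and the ranges of both genotypes overlapped in each.

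The genes that separated tumours most from marrow were close between genotypes. Cacna2d1 had 11.03, 11.31 and 11.48 as lowest, median and highest signal in deficient tumours, against 11.11, 11.31 and 11.51 in wild type tumours. Scn9a had 7.45, 8.16 and 8.69 in deficient and 7.58, 8.08 and 9.09 in wild type tumours, and Scn3a 7.20, 8.16 and 8.69 against 7.34, 7.88 and 8.63. The ranges lay over each other for all 3. The 95% intervals bound the differences at -0.16 to 0.13 for Cacna2d1, -0.34 to 0.39 for Scn9a and -0.21 to 0.57 for Scn3a. On the probe sets used, a change of 2-fold or more lies outside these intervals. The other Cacna2d1 probe sets, brightest first, differed by -0.27, 0.08, -0.21 and 0.17, none of them called. Among other cell types in the tumours, all 15 endothelial markers had higher means in deficient tumours (median difference 0.40, none called). So did 10 of 13 pericyte and smooth muscle markers (median 0.42, none called), and 9446 of 18193 genes in all. At an unadjusted limma p under 0.05 were 8 endothelial (53.3%) and 5 pericyte and smooth muscle markers (38.5%), against 3.20% of all genes. Over the 24 tumours, 0 relations between a channel gene and either of these lists passed the test described with the marker lists. The largest by rank was that of Scn8a with the pericyte and smooth muscle markers (Spearman rho = -0.637, permutation p = 0.0009, adjusted p = 0.144).

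**Figure D3:**
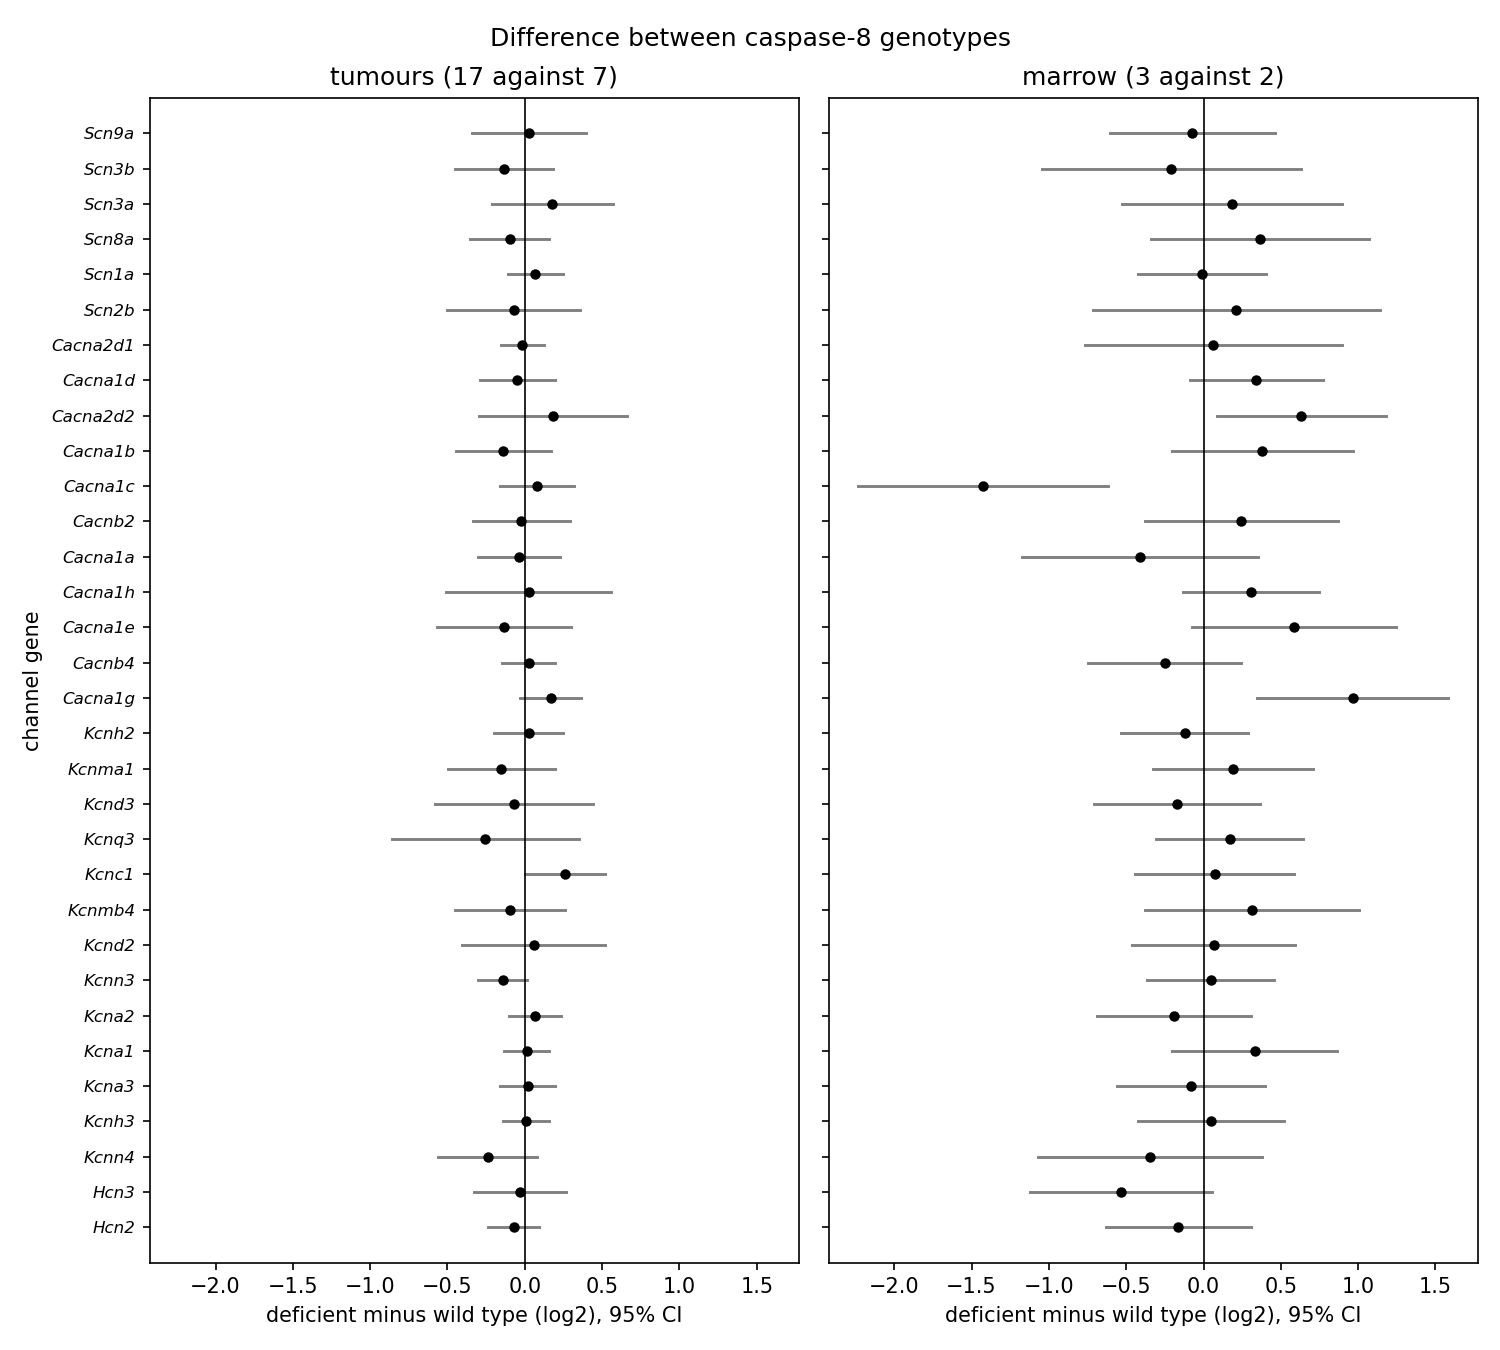
Difference between caspase-8 genotypes (horizontal axis, log2, deficient minus wild type) for the 32 channel genes, in tumours on the left and in marrow on the right. Points are limma estimates and lines 95% intervals; in tumours all points lie between -0.26 and 0.26, and in marrow Cacna1c at -1.43 and Cacna1g at 0.96 lie furthest from 0.

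In bone marrow the same question rests on 3 deficient and 2 wild type samples, and an exact permutation test of this design cannot go below p = 0.1. Limma on the marrow samples called none of the 32 genes, against 0.022% of all genes, and 3 channel genes (9.38%) had an unadjusted p under 0.05, against 737 of all genes (4.05%). In the 4-group model, where the tumours add to the estimate of the spread, 2 channel genes (6.25%) were called, Cacna1c and Cacna1g, against 0.456% of all genes. Cacna1c had 4.72, 4.10 and 3.42 in deficient marrow, against 5.63 and 5.38 in wild type marrow, a difference of -1.43 (SE 0.35, limma adjusted p = 0.9996 within marrow). All deficient samples lay below both wild type samples. Cacna1g had 6.27, 6.05 and 5.54, against 4.75 and 5.24, a difference of 0.96 (SE 0.27) with all deficient samples above both wild type ones. Cacna2d2 differed by 0.63 (SE 0.24) and Hcn3 by -0.53 (SE 0.25). The marrow genotypes also did not overlap in Cacna1d, Cacna1h, Cacna2d2, Kcnh2 and Hcn3, none of them called. Separation in so few samples is thus not particular to Cacna1c and Cacna1g, and its share over all genes was not counted. Signals of sex-linked genes split marrow in the same way: Xist, expressed from an inactive X chromosome, averaged 11.9 in deficient and 5.65 in wild type marrow, and the Y-linked Eif2s3y 2.68 and 9.34. Genotype and sex therefore cannot be told apart in marrow. In tumours Xist averaged 9.25 in deficient (4.68 to 12.7) and 8.12 in wild type samples (4.47 to 12.5). The part of sex in the tumour genotype comparison was not tested.

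The test of whether the genotype difference itself differs between tissues called 1 of the 32 genes (3.12%), against 0.319% of all genes. It was Cacna1c, with a difference of 0.08 in tumours and -1.43 in marrow, and an interaction of 1.504 (SE 0.30, limma adjusted p = 0.017). In the tumours Cacna1c had 6.17, 6.83 and 7.15 as lowest, median and highest signal in deficient and 6.09, 6.66 and 7.19 in wild type samples. The marrow part of the interaction rests on samples in which genotype and sex cannot be told apart. The result belongs to 1 probe set. The gene's other probe set had 3.82, 4.10 and 3.94 in deficient and 4.16 and 3.70 in wild type marrow, an interaction of -0.04, and with the mean of both the interaction was 0.73 (adjusted p = 0.33). Without wild type marrow 1 it was 1.38 (adjusted p = 0.17), and without deficient marrow 3 it was 1.17 (adjusted p = 0.068). Cacna1g had an interaction of -0.80 (SE 0.24, adjusted p = 0.23), which passed at -1.04 (adjusted p = 0.049) without wild type marrow 2. Kcna1 at -0.32 and Cacna1b at -0.52 were not called.

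**Figure D4:**
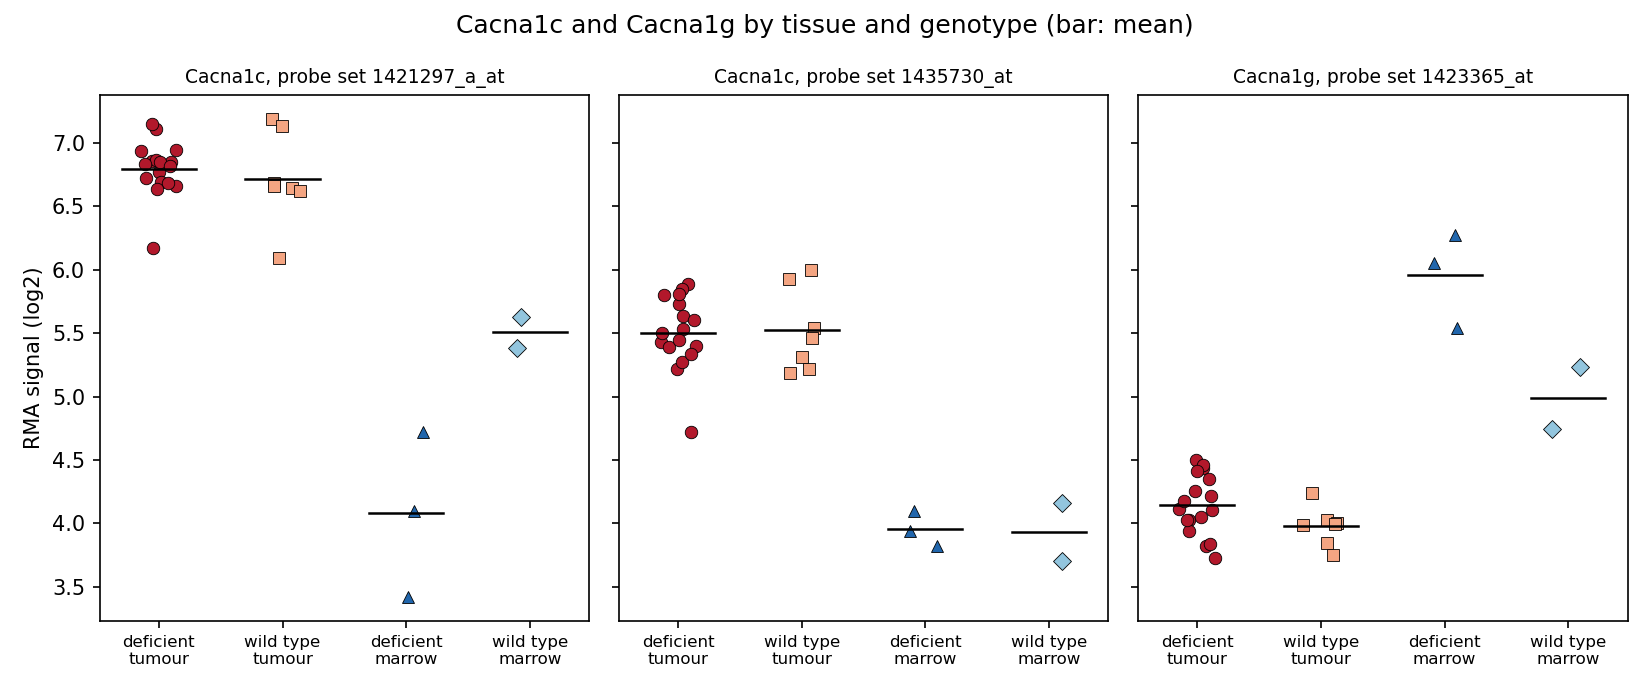
Log2 RMA signal (vertical axis) of both Cacna1c probe sets and the single Cacna1g probe set in every sample, with deficient and wild type tumours and then deficient and wild type marrow from left to right and bars at the group means. The 3 deficient marrow samples lie below both wild type ones in the first panel only; in the third they lie above.

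The channel genes varied more among the 24 tumours than most genes. The median SD over tumours was 0.321 for the channel genes and 0.194 for all genes, and 23 of the 32 lay above the median of all genes. Among genes above the background guide the median was 0.215, and 21 of 25 channel genes lay above it. Kcnq3 had the largest SD, 0.691, with a lowest value of 4.06, a median of 4.84 and a highest of 7.18 in wild type tumour 7, followed by deficient tumour 6 at 6.18. Cacna1h (SD 0.601) had 3.92, 4.53 and 6.46, with deficient tumour 5 highest and the next tumour at 5.48. In both genes single tumours stood far above the rest. Kcnd3 (SD 0.576) had 4.0001, 4.57 and 5.76, Cacna2d2 (SD 0.545) spanned 6.95 to 9.29, and Kcnd2 (SD 0.521) had 2.80, 3.25 and 4.93, with deficient tumours 6 and 9 highest. The smallest SDs were 0.145 for Cacna2d1, 0.151 for Kcna1 and 0.153 for Kcnh3. Of these, Kcna1 was dim. The small spread of Cacna2d1 belongs to the probe set used, since its next brightest one ran from 9.93 to 11.1 over the tumours (SD 0.366) and the other 3 had SDs of 0.348 to 0.651. On that next brightest one, deficient tumours with sample title numbers under 100 ran from 9.93 to 10.34, and the others from 10.59 to 11.1. Wild type tumours ran from 10.22 to 10.89 and from 10.92 to 11.

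Tumours are mixtures of cells, so each channel gene was set against the mean signal of 5 marker lists over the 24 tumours, 160 relations in all, with a permutation test of 100000 resamples and adjustment over the 160. All 5 relations that passed were positive. Kcnma1 followed the sympathoadrenal and neuronal markers (Pearson r = 0.733, permutation p = 0.00011, adjusted p = 0.0176; Spearman rho = 0.544, permutation p = 0.00677, adjusted p = 0.198). Its r was 0.682 without wild type tumours 1 and 2, the tumours furthest from the median, and within the 2 number series of the sample titles it was 0.853 (numbers under 100) and 0.722. Scn3b (r = 0.667, permutation p = 0.00047, adjusted p = 0.0248) and Kcnd2 (r = 0.652, permutation p = 0.00058, adjusted p = 0.0248) followed the same markers. Their rho was 0.486 (permutation p = 0.0168, adjusted p = 0.215) and 0.461 (permutation p = 0.0238, adjusted p = 0.215). Without the 2 furthest tumours r was 0.597 and 0.66, and within the series it was 0.61 and 0.764 for Scn3b and 0.655 and 0.665 for Kcnd2. Kcnd2 was dim, with a tumour median of 3.25 against the background guide of 4.37. Only deficient tumours 6 and 9, at 4.54 and 4.93, stood above the guide, and the r without the 2 furthest tumours kept both.

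The other relations fell more when the 2 tumours furthest from the marker median were left out. Cacna1c had r = 0.651 with the sympathoadrenal and neuronal markers (permutation p = 0.00062, adjusted p = 0.0248; rho = 0.402, permutation p = 0.0527, adjusted p = 0.249), which was 0.411 without wild type tumours 1 and 2, and 0.866 and 0.38 within the title series. Kcnn4 had r = 0.623 with the leukocyte markers (permutation p = 0.00137, adjusted p = 0.0438; rho = 0.386, permutation p = 0.0639, adjusted p = 0.249). It was 0.291 without wild type tumours 1 and 5, so that the relation rests on these samples, and 0.68 and 0.581 within the series. By Spearman's rho none of the 160 relations passed the adjustment.

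**Figure D5:**
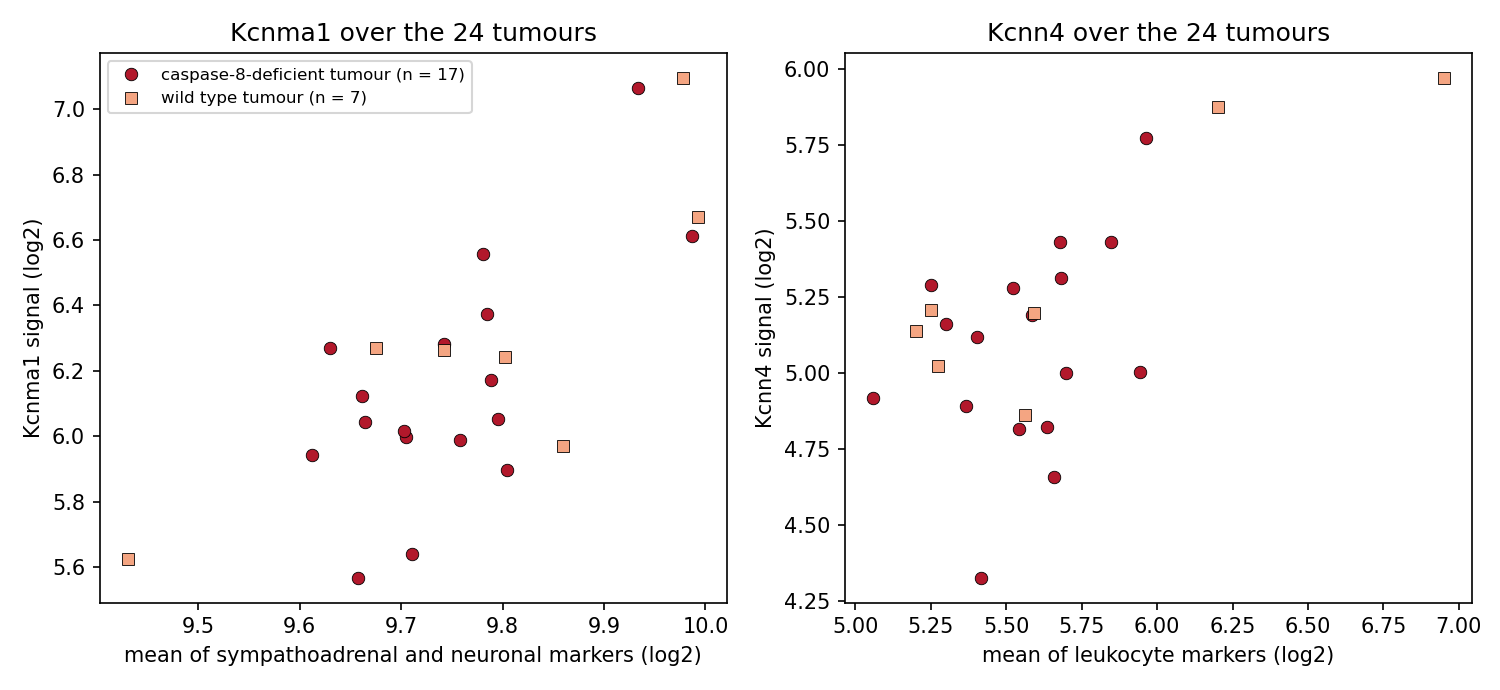
Log2 signal (vertical axes) of Kcnma1 against the mean log2 signal of the sympathoadrenal and neuronal markers, and of Kcnn4 against that of the leukocyte markers, over 17 deficient (circles) and 7 wild type tumours (squares). Tumours with more of the markers had higher Kcnma1 signals (r = 0.733), while the Kcnn4 relation (r = 0.623) leans on the wild type tumours at the far right.

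Channel genes outside the set were counted from lists of the same families. Over all genes 34.2% were called higher in tumours and 42.2% lower, the background for the counts that follow. Of 5 other sodium channel genes measured, 1 was higher in tumours and 3 were lower. Nalcn, the sodium leak channel that sets resting potential, averaged 8.88 ± 0.20 in tumours and 3.23 ± 0.17 in marrow, a difference of 5.61 (SE 0.10), whereas the beta subunit Scn4b was lower by -0.83 and the nociceptor channels Scn10a and Scn11a by -0.39 and -0.28. All 3 were dim in tumours, and only Scn4b, at 4.50 in marrow, stood above the background guide there. The Scn11a call was lost without wild type marrow 1, at -0.13 (limma adjusted p = 0.29), and the difference was -0.43 without wild type marrow 2. Of 13 other calcium channel genes, 6 were higher and 3 lower. Cacng4 and Cacng8, gamma subunits that also accompany AMPA receptors, differed by 3.46 (SE 0.22) and 1.69 (SE 0.24), and the beta subunit Cacnb1 by 1.03. Cacna2d4, Cacng6 and Cacna1f were lower by -0.61, -0.50 and -0.45.

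Of 43 other voltage-gated and calcium-activated potassium channel genes and partners, 11 were higher and 13 lower, against 34.2% and 42.2% of all genes. Kcnip1, a calcium-binding partner of A-type channels, was higher by 4.39 (SE 0.20), Kcnq5, of the M-current, by 3.09 (SE 0.17) and the accessory Kcne3 by 2.14 (SE 0.43). Hvcn1, a proton channel of phagocytes and B cells that carries no potassium, was lower by -3.11 (SE 0.18), Kcnab2 by -0.84 and Kcne4 by -0.48, a call lost without wild type marrow 1, at -0.24 (limma adjusted p = 0.18). Of 27 inward rectifier and tandem pore potassium channel genes, 6 were higher and 15 lower, with Kcnk1 (3.84), Kcnj3 (2.98) and Kcnk2 (2.73) highest and Kcnk6 (-3.33), Kcnj5 (-1.59) and Kcnk5 (-1.36) lowest. Kcnk2 and Kcnk1 carry background current, and Kcnj3 and Kcnj5 are subunits of G-protein-gated channels. By genotype in tumours none of these genes was called. The gene of smallest p in each list was Nalcn (0.11), Cacna2d3 (0.20), Kcnc2 (-0.75, SE 0.29, p = 0.017 in limma) and Kcnk5 (0.27, SE 0.10, p = 0.015 in limma), all with adjusted p = 0.9997.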

How the data were processed

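The authors deposited log2 signals of 45101 probe sets on 29 arrays, made with RMA in Partek 6.6 according to the submitters' processing notes. The sources used here do not give whether this was done on all arrays at once. RMA shrinks differences between dim signals, and its quantile step takes out any shift that most genes share. For arrays, the number of samples is what limits the precision.

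The platform annotation gave 1 symbol to 34945 probe sets, several to 932 and none to 9160, controls aside. Symbols were checked through Entrez IDs for 34741, and 0 changed. No signal filter was applied before choosing the brightest probe set for each of 18193 genes. Groups came from the tissue and genotype labels. Models were fitted with limma 3.58.1 (R 4.3.3, lmFit with eBayes) to tumours, to marrow, and to 4 groups for tissue and interaction. Tests were two-sided, with p-values adjusted by Benjamini-Hochberg over all genes and called under 0.05. The tissue difference averages both genotypes equally, so it departs slightly from the difference of plain means. The fits were tested on simulated data. Correlations used permutation in Python 3.11.15.

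The channel genes and the lists were chosen with earlier results of these data known. Values over the samples were given for the 8 called channel genes of largest difference in each direction, with group means for the rest. Named too were the 4 of smallest p by genotype and for the interaction and any called, the 5 largest and 3 smallest SDs, up to 8 called relations, and in each list of other channel genes the 3 of largest difference each way and the smallest p by genotype. Scn9a, Scn3a and Cacna2d1 are given by genotype as well, chosen after their values were seen. Alternatives were averaging all probe sets of a gene, a mean log2 filter of 5, quantile normalization repeated, centred arrays, other variance models and subsets of samples. A planned search of protein sequences was not run, since no protein table was used here.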

Additional observations from a re-analysis of the deposited data

Results flagged for a closer look

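With 32 channel genes and 7 wild type tumours each, the sample furthest from the others was examined by Dixon's test, which flags about 1 in 20 groups by chance. Kcnmb4 was at 4.39 in wild type tumour 1, with the nearest other wild type tumour at 5.22. The gap over the range, which the test uses, was 0.5682, against a critical value of 0.568. Among deficient tumours Kcnmb4 went as low as 4.49. Of the 24 tumours, wild type tumour 1 had the highest leukocyte marker mean, 6.95, and the lowest sympathoadrenal and neuronal marker mean, 9.43. Their part in the Kcnmb4 value was not tested. Kcnq3 was at 7.18 in wild type tumour 7, with the nearest at 5.63, and this tumour also had a skeletal muscle marker mean of 6.88, whose part in the value was not tested. The genotype difference of Cacna1c differed between tumours and marrow by 1.504 in the interaction test, from 1 of its 2 probe sets. In marrow, genotype and sex cannot be told apart, so the same holds for this interaction.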

How the results depend on the processing

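Only 5 marrow samples, 2 of them wild type, bound every tissue and marrow result, and dim probe sets compress differences. All 5 belong to the higher number series of the sample titles, as do 14 of the 24 tumours, and the labels do not explain the numbers. No paired analysis was possible because the labels give no replicate numbers shared between groups. Channel genes called for tissue numbered 21 to 25 when single samples were left out. Lower calls numbered 3 with the mean log2 filter of 5, which left 21 channel genes, and 9 with arrays centred on their medians; with at least a 2-fold difference they numbered 1 under the filter. Every tumour lay below marrow in 5 genes with centred arrays. In marrow by genotype 2 genes were called in the 4-group model. Interaction calls numbered 0 with the mean of probe sets, 2 with quantile normalization repeated, 0 with array weights, and 0 to 2 without single samples. Called relations numbered 0 by Spearman, 9 with the mean of probe sets, 0 in the lower series, 0 in the higher, 0 in deficient tumours and 12 with centred arrays.

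Genes with no call turned sign as follows. With the mean of probe sets, Scn1a was at 0.10, Kcna2 at 0.13 and Kcnd2 at -0.20. With quantile normalization repeated, Scn1a was at 0.17 and Hcn2 at -0.16. With centred arrays, Cacna1e was at -0.057, Cacnb4 at -0.24, Kcnd2 at -0.065, Kcnn3 at -0.17 and Hcn2 at -0.19. Cacnb4 was at -0.090 in wild type and Cacna1e at -0.13 in deficient samples only, and Nalcn by genotype at -0.082 in the lower series. Leaving out single samples moved Scn1a between -0.094 and 0.0095 and Cacnb4 between -0.0017 and 0.12. No call of a channel gene reversed its direction. The cause was not tested in any case.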
